A study of Mus musculus with 2 samples.

Results

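Egfr, the FGF receptors Fgfr1, Fgfr2 and Fgfr3, the inhibitors Spry1, Spry2, Spry4 and Dusp6, and the ETS factors Etv4 and Etv5 were followed across the cells of the adult mouse subventricular zone. These 10 genes were found by symbol among the 27998 genes of the deposited count table, and all 10 had counts. The table came from single-cell RNA sequencing of cells from male C57BL/6 mice, taken from the lateral subventricular zone, a niche of adult neural stem cells. The older group, at 22 months, pooled tissue of 8 mice, and the younger group, at 2 months, pooled tissue of 4 mice. The labels name no treatment, and both groups were sorted the same way. Sorted cells were positive for GLAST, a glutamate transporter of radial glia-like stem cells and astrocytes, and negative for O4 (oligodendrocyte lineage), Ter119 (erythroid) and CD45 (leukocyte). Each age gave 1 library of pooled animals, for which 8000 sort events entered the droplets. In the table every cell carried a library number, 1 or 2, but the labels do not say which number was which age. The libraries are therefore called 1 and 2 with no age named, and without replicates no test was made.

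Egfr and the FGF receptors are receptor tyrosine kinases. When a ligand binds, they recruit adaptors and switch on RAS, which starts the RAF, MEK and ERK kinase cascade. ERK activity raises the transcription of its own inhibitors, the Sprouty proteins upstream and the ERK phosphatase Dusp6 downstream, and of the ETS factors Etv4 and Etv5, so these transcripts are commonly used as readouts of the pathway. In the subventricular zone, Egfr is known as a receptor of activated stem cells and transit amplifying progenitors, while FGF receptors are found in radial glia and astrocytes.

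Library 1 held 1849 cell barcodes and 10440891 unique molecular identifiers (UMIs, tags that let each captured transcript be counted once), and library 2 held 2088 barcodes and 13330251 UMIs. After filters and doublet removal, 1824 cells of library 1 and 2064 of library 2 remained. They formed 16 clusters, of which 14 could be named by fixed markers. None of the 10 genes was a marker, and none shaped the clusters. The 4 classes described here are astrocyte-like cells (quiescent stem cells and astrocytes, not separated; 716 cells in library 1 and 586 in library 2), activated cells (activated stem cells or transit amplifying progenitors; 124 and 202), dividing cells (320 and 644) and neuroblasts (312 and 406). The summed astrocyte-like markers followed this order, at 83063 and 75107 CPM in astrocyte-like cells against 6257 and 5936 in activated, 5175 and 4157 in dividing cells and 4431 and 3101 in neuroblasts. Summed activated markers differed little between activated cells (3556 and 3558 CPM) and dividing cells (3355 and 3124 CPM). The activated class was cluster 3 alone, with 5 of 16 activated markers past 1.5-fold over other cells. Its mean log2 fold was 0.54 for activated markers and 0.89 for endothelial markers. CPM is the UMIs of a gene summed over a class and scaled to 1000000 UMIs, so it is a share of the class's transcripts. Activated and dividing cells were deeper (median 7564.5 to 9888.5 UMIs per cell) than astrocyte-like cells and neuroblasts (3188.5 to 4123). Intervals in square brackets are exact 95% intervals of counting, and cover counting error only. Only 4 barcode sequences occurred in both libraries. Although the sort removed O4-positive cells, 101 oligodendrocytes of library 1 and 9 of library 2 were present, with 17 and 32 oligodendrocyte precursors. Shares of these oligodendrocytes with a UMI are given below for comparison, and whether their UMIs were background was not tested.

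The promoters of Egfr, Spry2 and Dusp6 are shown because these genes carried the main patterns below: Egfr by class, Spry2 by a single dividing cluster, and Dusp6 by library. Each line is the 250 bases before the RefSeq transcription start (build GRCm38.p6), read 5′ to 3′ on the gene's own strand. Capitals mark a match to CCGGAA, a longer form of the ETS core GGAA, or its reverse complement TTCCGG. The core GGAA alone also occurs in these windows and is not marked.
Egfr (chr11:16751953-16752202, plus strand): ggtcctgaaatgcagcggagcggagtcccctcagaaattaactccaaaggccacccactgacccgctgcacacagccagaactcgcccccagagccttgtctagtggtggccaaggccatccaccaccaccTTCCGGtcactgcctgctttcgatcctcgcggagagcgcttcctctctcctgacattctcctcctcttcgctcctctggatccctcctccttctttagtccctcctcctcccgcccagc
Spry2 (chr14:105896820-105897069, minus strand): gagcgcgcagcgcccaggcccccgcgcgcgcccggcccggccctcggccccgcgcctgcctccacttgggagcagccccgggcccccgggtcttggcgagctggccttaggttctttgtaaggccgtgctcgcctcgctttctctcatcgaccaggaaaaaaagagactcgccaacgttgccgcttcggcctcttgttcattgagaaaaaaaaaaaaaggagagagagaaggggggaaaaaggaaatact
Dusp6 (chr10:99262981-99263230, plus strand): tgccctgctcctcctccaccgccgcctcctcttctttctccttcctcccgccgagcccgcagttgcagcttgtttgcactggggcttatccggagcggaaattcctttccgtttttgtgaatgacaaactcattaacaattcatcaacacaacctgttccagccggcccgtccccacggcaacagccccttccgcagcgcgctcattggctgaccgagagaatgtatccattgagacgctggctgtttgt
The motif CCGGAA, searched on both strands, was found in 1 of 9 windows of 7 of the 10 genes, that of Egfr. Of all 32851 RefSeq windows of this length, 3952 (12.03%) held it. A match is only a run of letters, and its absence elsewhere says nothing about binding.

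Egfr, the EGF receptor, was highest of the 4 classes in activated cells, in both libraries. The gene lies on chromosome 11 (16752203 to 16913907 in RefSeq, GRCm38.p6, as are the positions below). In library 1 it was at 103 CPM [91.0 to 115] in astrocyte-like, 249.9 [221 to 282] in activated and 144 [131 to 158] in dividing cells, and at 51.3 [39.5 to 65.5] in neuroblasts. In library 2 it was at 70.0 [59.4 to 81.9], 188 [167 to 211], 92.5 [85.1 to 100.4] and 41.0 [32.4 to 51.1] CPM in the same classes. Activated cells stood above, and neuroblasts below, all other classes in both libraries, while dividing and astrocyte-like cells overlapped across libraries. Activated cells were 2.43-fold [2.05 to 2.89] higher than astrocyte-like cells in library 1 and 2.69-fold [2.21 to 3.29] in library 2. Dividing cells were 1.73-fold lower than activated cells in library 1 and 2.03-fold lower in library 2. Some levels depended on the clustering: when marked doublets were kept, Egfr was at 53.9 CPM in astrocyte-like cells and 23.9 CPM in neuroblasts of library 1, and at 18.02 CPM in neuroblasts of library 2.

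The share of cells with an Egfr UMI followed the same order. Unthinned, it was 79.8% of activated against 22.9% of astrocyte-like cells in library 1, and 64.4% against 18.8% in library 2. After each cell was thinned to 2000 UMIs, 45.2% of activated cells of library 1 and 29.4% of library 2 had an Egfr UMI, against 14.9% and 9.98% of astrocyte-like cells. Of 94 thinned oligodendrocytes of library 1, 5.32% had an Egfr UMI. In library 2 it was 0 of 8, which allows up to 36.9%. The Egfr level of oligodendrocytes was 43.5 CPM in library 1 (median 4228 UMIs per cell). It was 20.9 CPM, a single UMI, in library 2 (median 5119). Whether these UMIs were background or expression was not tested. The neuroblast share, 7.09% in library 1 and 6.12% in library 2, was close to the oligodendrocyte share in library 1.

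Fgfr3, the FGF receptor best known from astrocytes, was highest in astrocyte-like cells. Its levels by lineage order were 252 [234 to 272], 29.0, 30.3 and 13.6 CPM in library 1 and 193 [175 to 212], 26.1, 16.0 and 11.9 CPM in library 2. Astrocyte-like cells stood far above the others, and activated and dividing cells overlapped. Activated cells were 8.70-fold lower [6.07 to 12.9] than astrocyte-like cells in library 1 and 7.38-fold lower [5.33 to 10.5] in library 2. After thinning, 5.65% and 6.47% of activated cells had an Fgfr3 UMI in libraries 1 and 2, against 40.0% and 29.2% of astrocyte-like cells, while 0 of 94 oligodendrocytes of library 1 had one, which allows up to 3.85%. Fgfr3 lies on chromosome 5 (33721724 to 33737068).

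Fgfr1, a receptor widely expressed in neural progenitors, was likewise highest in astrocyte-like cells. It was at 75.6, 22.5, 14.8 and 6.41 CPM in astrocyte-like, activated and dividing cells and neuroblasts of library 1, and at 84.8, 26.8, 18.4 and 11.4 CPM in those of library 2. No 2 classes overlapped across libraries, although the counting intervals of activated and dividing cells overlapped within each library. Activated cells were 3.36-fold lower [2.20 to 5.37] in library 1 and 3.17-fold lower [2.25 to 4.55] in library 2 than astrocyte-like cells. Fgfr1 lies on chromosome 8 (25518759 to 25575718).

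Fgfr2, an FGF receptor that oligodendrocytes are also known to carry, was at 42.2, 15.9, 10.3 and 22.4 CPM in the 4 classes of library 1 and at 45.3, 15.7, 11.2 and 11.9 CPM in those of library 2. Activated cells were 2.65-fold lower [1.59 to 4.71] in library 1 and 2.89-fold lower [1.84 to 4.72] in library 2 than astrocyte-like cells. Neuroblasts overlapped activated cells across libraries and were above dividing cells in both, by 2.18-fold [1.26 to 3.73] in library 1 and 1.07-fold [0.636 to 1.74] in library 2. Oligodendrocytes were far above all 4 classes, at 224 CPM [183 to 272] in library 1 and 230 CPM [115 to 411] in library 2, with 37.2% and 50.0% of thinned cells against 7.37% and 8.53% of astrocyte-like cells. Among neuroblasts the Fgfr2 UMIs lay mainly in cluster 10, at 47.6 CPM in library 1 and 41.2 CPM in library 2, against at most 16.0 CPM in clusters 4 and 6 of either library. The gene lies on chromosome 7 (130162451 to 130266808). In GENCODE release M21 its longest model runs on across many neighbouring genes of its own strand, so its counts are less certain than those of the other 9 genes.

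**Figure D1:**
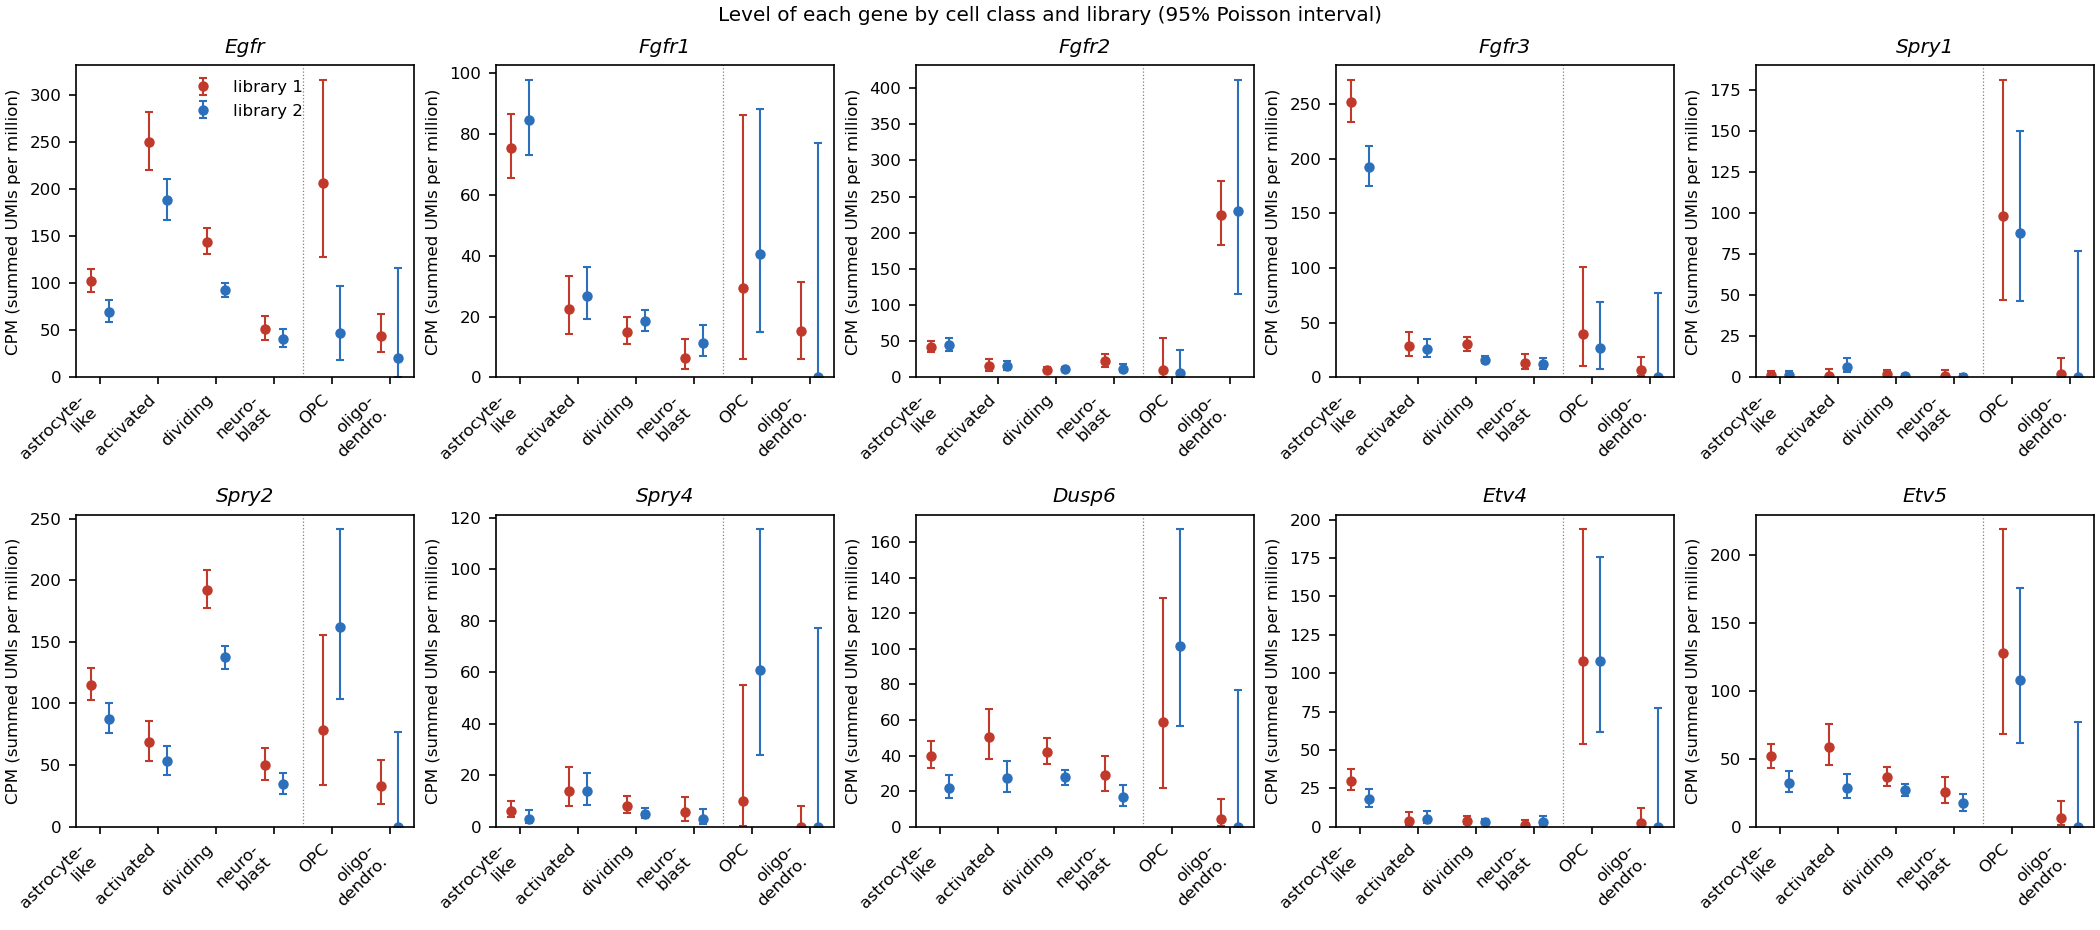
Level of each of the 10 genes, in CPM (one panel per gene, each with its own scale), by cell class and library; bars are exact 95% counting intervals. Among the 4 lineage classes Egfr is highest in activated cells, at 249.9 CPM in library 1 and 188 CPM in library 2, while Fgfr1, Fgfr3 and Etv4 are highest in astrocyte-like cells.

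Sprouty proteins hold back signalling from receptor tyrosine kinases to RAS and RAF. Spry2, on chromosome 14 (105891947 to 105896819), was at 115 [103 to 129], 68.3 [53.6 to 85.9], 192 [177 to 208] and 49.7 CPM in library 1 and at 87.5 [75.6 to 100.6], 52.9 [42.0 to 65.8], 137 [128 to 147] and 34.2 CPM in library 2, in lineage order. It was therefore lower in activated than in astrocyte-like cells (1.69-fold [1.30 to 2.21] and 1.65-fold [1.27 to 2.17]) and higher in dividing than in activated cells (2.82-fold [2.21 to 3.64] and 2.60-fold [2.07 to 3.30]). Per cell the first step ran the other way, at 0.589 and 0.401 UMIs per activated cell against 0.439 and 0.333 per astrocyte-like cell, since activated cells held more UMIs. After thinning, 5.67% [3.28 to 9.05] of neuroblasts of library 1 had a Spry2 UMI, no more than the 7.45% [3.05 to 14.7] of 94 oligodendrocytes. In library 2 it was 5.61% of neuroblasts and 0 of 8 oligodendrocytes.

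Most Spry2 UMIs of dividing cells lay in a single cluster. Cluster 5 (78 cells in library 1 and 163 in library 2), led by Rpgrip1, Supt16, Spry2 and Actb, was at 649 CPM [586 to 718] in library 1 and 391 CPM [358 to 426] in library 2. It held 383 of the 597 Spry2 UMIs of dividing cells in library 1 and 521 of 849 in library 2. After thinning, 61.8% and 47.5% of its cells had a Spry2 UMI, and single cells reached 47 UMIs in library 1 and 26 in library 2. The other dividing clusters 8, 9 and 12 were between 38.2 and 113 CPM. Cluster 5 carried its class name on few markers, with 3 past 1.5-fold and a mean log2 fold of 0.39 for dividing markers against 0.34 for activated markers. Without it, Spry2 in dividing over activated cells had a log2 ratio of 0.32 in library 1 and 0.35 in library 2, below the 1.5-fold used here. Both Spry2 steps changed direction under other ways of clustering, with values given in the closing section. With marked doublets kept, Spry2 was at 206 and 155 CPM in activated cells and at 89.0 and 68.1 CPM in dividing cells of libraries 1 and 2.

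Spry4 and Spry1 were sparse. Spry4, another Sprouty inhibitor, on chromosome 18 (38586247 to 38601347), had 171 UMIs in all cells analysed. It was at 6.24, 14.04, 8.05 and 5.61 CPM in library 1 and at 3.14, 13.7, 5.01 and 3.11 CPM in library 2, highest in activated cells in both. The activated over astrocyte-like fold was 2.25 [1.05 to 4.79] from 15 and 17 UMIs in library 1, and 4.37 [1.79 to 12.2] from 21 and 7 UMIs in library 2. In library 1 the log2 ratio was 0.42 with marked doublets kept, 0.49 after thinning and -0.17 with finer clusters, none of which reached 1.5-fold higher. Spry1, on chromosome 3 (37639947 to 37644599), had 72 UMIs, of which 23 lay in the 49 oligodendrocyte precursors (98.4 CPM in library 1 and 87.8 CPM in library 2). In the 4 lineage classes it was at 6.53 CPM or less, and no step had the 20 UMIs required for a comparison.

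Dusp6, a phosphatase that removes the activating phosphates from ERK, differed little between astrocyte-like, activated and dividing cells, and was lowest in neuroblasts. It lies on chromosome 10 (99263231 to 99267489). In lineage order it was at 40.0 [32.8 to 48.2], 50.5 [38.0 to 65.9], 42.2 and 28.8 CPM in library 1 and at 22.0 [16.3 to 29.1], 27.4 [19.8 to 37.1], 27.7 and 16.6 CPM in library 2. Every class overlapped its neighbours across libraries, because levels differed between the libraries. Within each library, neuroblasts were below dividing cells, by 1.46-fold [1.01 to 2.18] in library 1 and 1.67-fold [1.14 to 2.51] in library 2. Activated cells were 1.26-fold and 1.25-fold higher than astrocyte-like cells in libraries 1 and 2, below the 1.5-fold used here. After thinning, 5.96% of astrocyte-like, 8.87% of activated and 8.25% of dividing cells and 5.32% of neuroblasts of library 1 had a Dusp6 UMI, against 1.06% of oligodendrocytes. In library 2 the shares in the same classes were 3.09%, 5.47%, 5.16% and 3.06%.

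The ETS factors went apart. Etv4 and Etv5 are closely related transcription factors of the Pea3 group, both known to be induced by FGF signalling. Etv4, on chromosome 11 (101769747 to 101785310), was at 30.1 [23.9 to 37.3], 3.74, 3.87 and 0.801 CPM in library 1 and at 17.9 [12.8 to 24.4], 5.23, 3.24 and 3.11 CPM in library 2. Activated cells were thus 8.03-fold lower [3.02 to 30.2] than astrocyte-like cells in library 1 and 3.43-fold lower [1.59 to 8.49] in library 2, an order shared with Fgfr3 and Fgfr1. Etv5, on chromosome 16 (22381313 to 22439570), was at 51.7 [43.5 to 61.0], 59.0 [45.3 to 75.4], 36.7 and 25.6 CPM in library 1 and at 32.3 [25.3 to 40.7], 28.7 [20.9 to 38.6], 26.9 and 17.1 CPM in library 2. Only neuroblasts stood apart for Etv5, below the other classes in both libraries, although their counting intervals overlapped those of dividing cells within each library. Neuroblasts were 1.43-fold lower [0.961 to 2.19] than dividing cells in library 1 and 1.57-fold lower [1.07 to 2.35] in library 2.

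The steps between classes were then read against all genes. A gene was counted as higher or lower when it differed at least 1.5-fold in the same direction in both libraries, with at least 20 UMIs in both classes together in each. In activated against astrocyte-like cells, 2 of the 9 measurable genes were higher (Egfr and Spry4), near the 20.1% of all genes tested, and 5 were lower (Fgfr1, Fgfr2, Fgfr3, Spry2 and Etv4), against 25.6% of all genes. All 3 FGF receptors were among these 5. Of the 5, Spry2 turned higher in both libraries with doublets kept and under stricter cell filters, and fell short of 1.5-fold after thinning. With cluster 1 counted as activated, only Fgfr1 and Fgfr3 were still counted as lower. Of the genes counted as higher, Egfr stayed so with doublets kept, under stricter cell filters, with finer clusters and after thinning, whereas Spry4 was lost in 3 of these 4 settings. In dividing against activated cells, 1 of 8 was higher (Spry2; 8.13% of all genes) and 2 were lower (Egfr and Spry4; 4.58%). In neuroblasts against dividing cells, 0 of 8 were higher (10.5%) and 3 were lower (Egfr, Fgfr1 and Spry2; 12%). At this last step Egfr was 2.82-fold lower in library 1 and 2.26-fold lower in library 2, Fgfr1 2.31-fold and 1.62-fold lower, and Spry2 3.87-fold and 4.01-fold lower.

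Within the astrocyte-like class, the levels of Egfr and Fgfr3 differed between its clusters. The class was made of cluster 0 (523 cells in library 1 and 300 in library 2), led by Cxcl14, Slc7a10 and Htra1, and cluster 2 (193 and 286), led by Gfap, Ass1, Prss56 and Thbs4. Egfr was at 211 CPM in cluster 2 against 39.5 CPM in cluster 0 in library 1, and at 94.4 against 41.7 CPM in library 2. Fgfr3 was at 101 against 340.5 CPM in library 1 and at 66.8 against 339 CPM in library 2. Cluster 2 was thus higher in Egfr and lower in Fgfr3 in both libraries, while Fgfr2 was similar in both clusters (36.8 against 45.3 CPM and 39.3 against 52.3 CPM). The thinned share of cells with an Egfr UMI was 29.3% in cluster 2 against 9.19% in cluster 0 of library 1, and 12.4% against 7.61% in library 2. Per cell, however, Egfr and Fgfr3 did not exclude each other. Among thinned astrocyte-like cells of library 1, 32.6% [23.4 to 43.0] with an Egfr UMI had an Fgfr3 UMI, against 41.3% [37.1 to 45.5] without. In library 2 the shares were 30.9% and 29.0%.

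Unnamed cluster 1 (229 cells in library 1 and 130 in library 2), led by Cebpb, Junb, Socs3, Cyr61 and Cxcl10, was high in several of the genes. Egfr was at 264 and 145 CPM there in libraries 1 and 2, Spry2 at 203 and 191 CPM, and Etv5 at 64.3 and 48.3 CPM. Dusp6, at 118 CPM [101 to 137] in library 1 and 63.5 CPM [46.5 to 84.7] in library 2, was higher in cluster 1 than in any named lineage cluster of the same library.

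The dividing and neuroblast clusters also differed in Egfr. It was at 175, 181 and 129 CPM in dividing clusters 5, 8 and 12 of library 1 and at 118, 117 and 101 CPM in those of library 2, but at 39.6 and 33.9 CPM in dividing cluster 9, which is led by mitotic genes with the neuroblast genes Dlx5 and Sp9. Cluster 9 thus resembled neuroblasts in Egfr level, with 39.6 CPM against 51.3 CPM in neuroblasts of library 1 and 33.9 against 41.0 CPM in library 2. Among neuroblasts, cluster 4 was at 99.0 and 58.7 CPM in libraries 1 and 2, against 13.2 to 26.7 CPM in library 1 and 12.5 to 23.5 CPM in library 2 in clusters 6 and 10. Without cluster 9, Egfr in dividing over activated cells had a log2 ratio of -0.51 in library 1 and -0.72 in library 2, so that the first value no longer reached 1.5-fold.

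**Figure D2:**
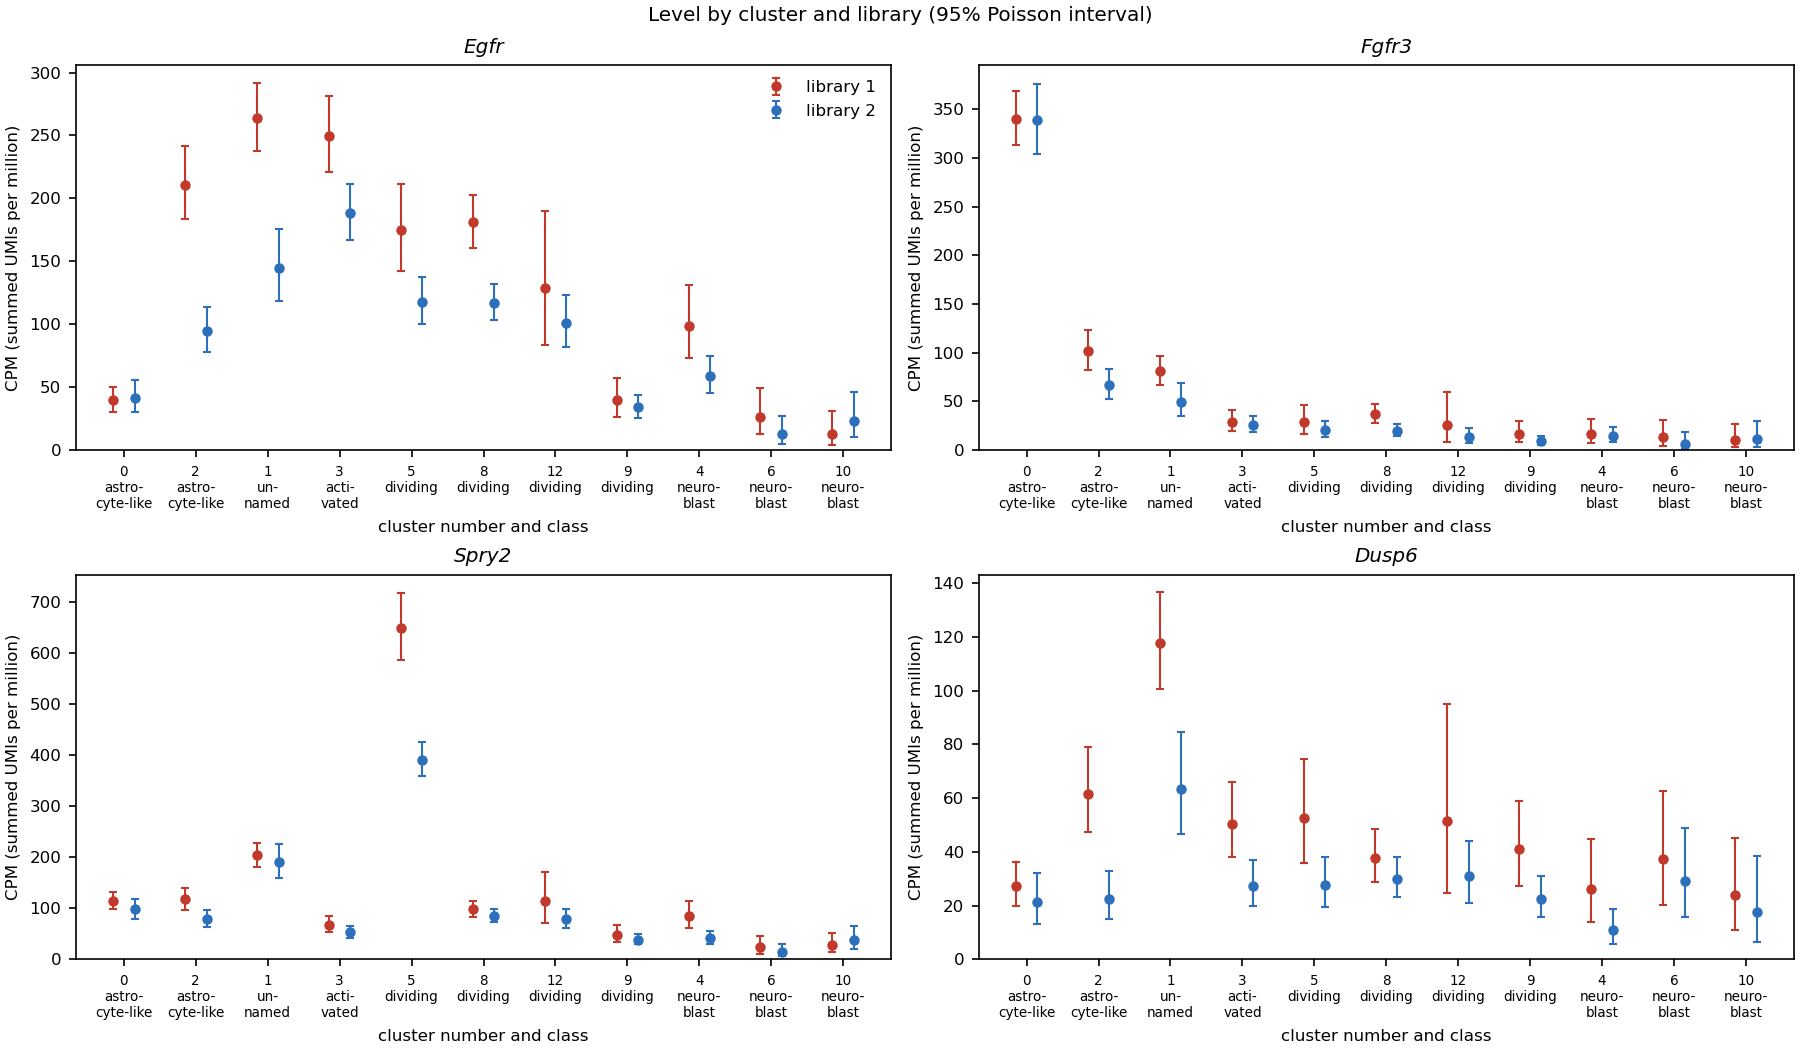
Levels of Egfr, Fgfr3, Spry2 and Dusp6 (CPM, exact 95% counting intervals) in the clusters of the 4 classes and in unnamed cluster 1, by library. Egfr and Fgfr3 are opposed between clusters 0 and 2, Spry2 stands out in cluster 5 at 649 CPM in library 1 and 391 CPM in library 2, and Dusp6 stands out in cluster 1.

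Between the libraries, most of the 10 genes were higher in library 1. Dusp6 was 1.82-fold [1.29 to 2.60] higher in library 1 than in library 2 in astrocyte-like cells, 1.84-fold [1.21 to 2.83] in activated cells, 1.53-fold [1.21 to 1.93] in dividing cells and 1.74-fold [1.05 to 2.89] in neuroblasts. Etv5 was 1.60-fold [1.20 to 2.16], 2.05-fold [1.37 to 3.09], 1.37-fold [1.07 to 1.75] and 1.498-fold higher in the same order. Egfr was 1.47-fold [1.20 to 1.80], 1.33-fold [1.12 to 1.58], 1.56-fold [1.38 to 1.77] and 1.25-fold [0.885 to 1.76] higher. Dusp6 was the only one of the 10 to pass 1.5-fold in all 4 classes. Its ratio in dividing cells was near that limit, and its log2 value of 0.61 fell below the limit with doublets kept (0.58), with median-of-ratios scaling (0.58), with the mean of per-cell CPM (0.48) and without cluster 5 or cluster 9 (0.53 each).

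Spry2 was 1.32-fold [1.10 to 1.58], 1.29-fold, 1.40-fold [1.26 to 1.56] and 1.45-fold higher in library 1 across the 4 classes. Fgfr3 was 1.31-fold [1.16 to 1.48], 1.11-fold, 1.89-fold [1.41 to 2.53] and 1.14-fold higher. Fgfr1 had library 1 over library 2 ratios below 1, at 0.891 [0.728 to 1.09], 0.839 [0.485 to 1.42], 0.804 [0.558 to 1.14] and 0.562 [0.216 to 1.31]. Each of these intervals included 1, and the last ratio rests on 8 and 22 UMIs. Fgfr2 was near 1 except in neuroblasts (0.931, 1.02, 0.924 and 1.88 [1.04 to 3.42]). Of the 7 genes measurable in all 4 classes, 5 (Egfr, Fgfr3, Spry2, Dusp6 and Etv5) were higher in library 1 by any size in every class, against 14.3% of all genes, and 1 (Fgfr1) was lower in every class, against 10.2%. The neuroblast log2 ratio of Egfr turned to -0.15 with the mean of per-cell CPM in place of sums, and that of Spry2 to -0.44 with doublets kept, -0.48 with finer clusters and -0.54 when all genes could shape the clusters. That of Fgfr1 turned in astrocyte-like cells under 4 settings, where it was at most 0.08, and in activated cells under 2 (0.24 and 0.26), and that of Fgfr3 in activated cells after thinning (-0.30). For Dusp6 the log2 ratio stayed between 0.48 and 1.26 in every class and setting tried.

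Counted by 1.5-fold, 4 of 9 genes were higher in library 1 in astrocyte-like cells (Spry4, Dusp6, Etv4 and Etv5; 8.38% of all genes) and 0 were lower (7.98%). In activated cells 2 of 8 were higher (Dusp6 and Etv5; 8.82%) and 0 lower (8.74%). In dividing cells 4 of 9 were higher (Egfr, Fgfr3, Spry4 and Dusp6; 6.52%) and 0 lower (5.98%). In neuroblasts 2 of 7 were higher (Fgfr2 and Dusp6; 10.7%) and 1 was lower (Fgfr1; 6.75%). The median log2 ratio of the measurable genes was 0.55 in astrocyte-like cells, 0.26 in activated cells, 0.49 in dividing cells and 0.54 in neuroblasts, while that of all genes tested was between 0.01 and 0.04. Each ratio compares 1 library with 1 other, and whether other libraries of either age would differ likewise is not known.

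Markers of other cells moved with the library. The 11 oligodendrocyte markers summed to 552 against 240.4 CPM in astrocyte-like cells of libraries 1 and 2, to 386 against 95.4 CPM in activated cells, to 349 against 74.2 CPM in dividing cells and to 378 against 85.6 CPM in neuroblasts, with none at 0. Oligodendrocytes of library 1 themselves had 4.35 CPM of Dusp6, 6.53 of Etv5, 6.53 of Fgfr3, 32.6 of Spry2 and 43.5 of Egfr, each below the library 1 level of every lineage class. Fgfr2 was the other way, at 224 CPM in these oligodendrocytes against 22.4 CPM in neuroblasts of library 1, where it was 1.88-fold higher than in those of library 2. The 8 endothelial markers summed to 4.68 CPM in activated cells of library 1, with 6 at 0, and to 181 CPM in those of library 2, with none at 0. In astrocyte-like cells the 9 mural markers summed to 66.8 CPM in library 1, with 7 at 0, and to 162 CPM in library 2, with 1 at 0, and the 10 ependymal markers to 151 and 240.4 CPM. Their part in the library ratios was not tested.

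**Figure D3:**
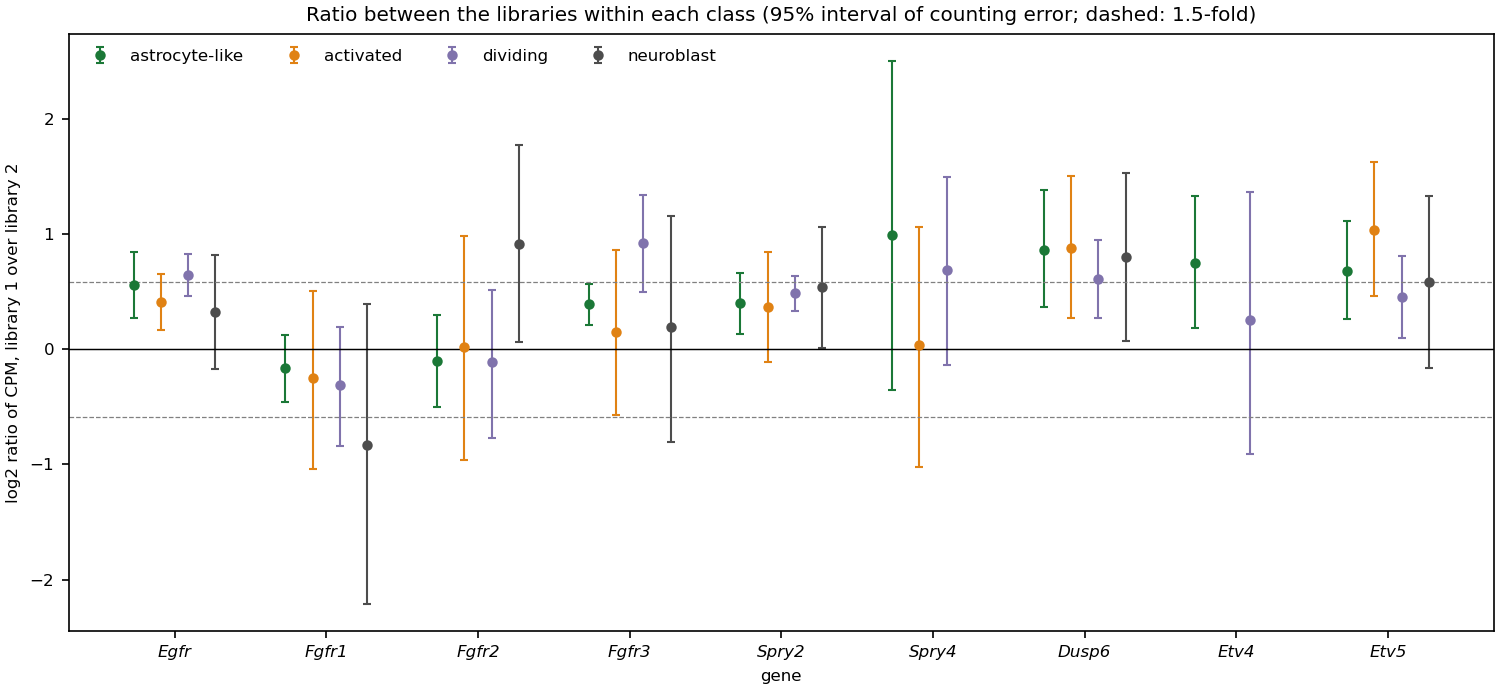
Log2 ratio of CPM (vertical axis), library 1 over library 2, for each gene in each of the 4 classes where it had 20 UMIs, with exact 95% counting intervals; dashed lines mark 1.5-fold and positive values mean higher in library 1. Dusp6 and Etv5 lie above 0 in every class. Fgfr1 lies below 0 in every class, but each of its intervals includes 0, and in astrocyte-like and activated cells it turned under some settings.

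Within the astrocyte-like class the library ratios differed between its clusters. In cluster 0, 0 of 8 genes were at least 1.5-fold higher in library 1 (10.3% of all genes) and 0 were lower (8.04%). In cluster 2, 5 of 8 were higher (13.2%) and 1 was lower (Fgfr1; 9.96%). Those higher were Egfr (2.23-fold [1.77 to 2.83], 211 against 94.4 CPM), Fgfr3 (1.52-fold, 101 against 66.8), Dusp6 (2.73-fold [1.71 to 4.47], 61.7 against 22.6), Etv4 (3.42-fold, 22.9 against 6.68) and Etv5 (3.38-fold [2.12 to 5.57], 70.6 against 20.9). Fgfr1 was at 40.8 CPM in library 1 against 76.0 CPM in library 2. In cluster 0, Fgfr3 was at 340.5 against 339 CPM, Egfr at 39.5 against 41.7, Etv5 at 40.7 against 45.5 and Fgfr1 at 95.9 against 94.95. The counting intervals of the library ratio lay apart between cluster 2 and cluster 0 for Egfr (cluster 0: 0.948 [0.638 to 1.42]) and for Etv5 (0.893 [0.608 to 1.32]), whereas for Dusp6 they overlapped (1.28 [0.757 to 2.23]).

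Finer clusters showed that cluster 2 was mixed in unlike proportions in the 2 libraries. At resolution 2, which gave 25 clusters, a cluster led by Thrsp, Notum and Prss23 took 110 of the 193 cluster 2 cells of library 1 but 56 of the 286 of library 2. Egfr was at 258 CPM there in library 1 and 175 CPM in library 2, Fgfr3 at 85.4 and 47.0 CPM, Dusp6 at 62.7 and 41.9 CPM and Etv5 at 84.1 and 43.2 CPM. A cluster led by Gfap and Thbs4 took 13 cells of cluster 2 in library 1 and 137 in library 2, and Egfr was at 87.4 CPM (5 UMIs) and 39.2 CPM there, with Fgfr1 at 69.9 and 80.4 CPM, Dusp6 at 52.4 CPM (3 UMIs) and 18.6 CPM (9 UMIs) and Etv5 at 35.0 CPM (2 UMIs) and 4.12 CPM (2 UMIs). A cluster led by Prss56 and Ecel1 took 65 and 91 cells, with Egfr at 121 and 70.2 CPM, Dusp6 at 76.0 and 12.5 CPM and Etv5 at 48.4 and 10.0 CPM. Egfr, Dusp6 and Etv5 had higher values in library 1 in all 3 of these finer clusters, but in the Gfap cluster these rest on 2 to 5 UMIs of library 1.

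The other clusters gave the following counts. In unnamed cluster 1, 5 of 9 genes were higher in library 1 (Egfr 1.82-fold, Fgfr3 1.63-fold, Spry4 1.79-fold, Dusp6 1.85-fold and Etv4 2.46-fold; 12.9% of all genes) and 0 were lower (7.9%). In neuroblast cluster 4, 4 of 5 were higher (Egfr 1.69-fold, Spry2 2.04-fold, Dusp6 2.42-fold and Etv5 2.04-fold; 10.9%) and 0 lower (9.37%). In dividing cluster 5, 2 of 7 were higher (Spry2 1.66-fold and Dusp6 1.89-fold; 9.9%) and 0 lower (10.1%). In dividing cluster 8, 3 of 8 were higher (Egfr 1.55-fold, Fgfr3 1.88-fold and Spry4 1.63-fold; 7.37%) and 1 lower (Fgfr1, with a ratio of 0.65; 6.55%). In dividing cluster 9, 3 of 5 were higher (Fgfr3 1.87-fold, Dusp6 1.83-fold and Etv5 1.80-fold; 8.71%) and 0 lower (9.61%). In neuroblast cluster 6 the 1 measurable gene was Dusp6 (1.28-fold), so that 0 were higher (8.97%) and 0 lower (9.75%). In neuroblast cluster 10 the 2 measurable genes were Fgfr2 (1.16-fold) and Spry2 (a ratio of 0.761), and 0 were higher (13.1%) and 0 lower (7.59%). Dusp6 was among the higher genes in clusters 1, 2, 4, 5 and 9, and not in clusters 0, 6 and 8. In cluster 10 it had too few UMIs to be counted.

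The rest of the pathway was read from 7 lists of 115 other genes, from ligands to ERK targets. Between activated and astrocyte-like cells, 66 could be compared, of which 20 were higher (the background being 20.1%) and 15 lower (25.6%). Their median log2 ratio was 0.38 in library 1 and 0.30 in library 2, against -0.75 and -0.73 for the 9 measurable genes described above and -0.02 and -0.03 for all genes tested. The median of the 9 genes was the value of Spry2 itself in both libraries. That value turned to 0.93 and 0.83 with doublets kept and to 1.05 and 0.91 with the stricter filter, so this median depends on filtering and clustering.

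Ligands were few. Both measurable EGF family ligands were lower in activated cells, among them Hbegf, a heparin-binding ligand of Egfr, at 4.68 and 6.53 CPM in activated cells of libraries 1 and 2, against 60.2 and 32.7 CPM in astrocyte-like cells. The other was Tgfa. Of 3 FGF ligands 2 were lower, Fgf1 and Fgf13. Among 7 measurable FGF co-receptors and regulators 2 were higher and 3 lower, including the receptor-binding membrane protein Flrt1, which was 18.03-fold and 4.26-fold lower, and Fgfrl1, an FGF receptor without a kinase domain, which was 1.74-fold and 2.89-fold lower. Of 7 other ErbB receptors and regulators, the ubiquitin ligase Cblb was higher and Lrig1, an inhibitor of Egfr, was lower.

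Of 21 genes of the RAS to ERK core, 5 were higher in activated cells (23.8%, near the 20.1% of all genes). Lower were 3 (14.3%, below the 25.6% of all genes). The higher ones included the RAS protein Nras (3.17-fold in library 1 and 2.79-fold in library 2), the phosphatase Ptpn11 (3.31-fold and 2.42-fold) that carries receptor signals to RAS, and Mapk3, which encodes ERK1 (1.63-fold and 1.61-fold). The kinase Map2k1 (MEK1) was 3.87-fold and 1.61-fold lower. Of 11 other feedback inhibitors 3 were higher and 3 were lower (27.3% each). Among the higher was Dusp10 (6.86-fold and 3.52-fold), a phosphatase acting mainly on stress kinases. Among the lower were the RAS inhibitors Rasa2 (4.18-fold and 3.99-fold lower), Rasa3 (1.92-fold and 2.31-fold lower) and Spred1 (1.82-fold and 2.42-fold lower).

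The ERK output and early genes had the largest share of higher genes. Of 15 measurable genes, 9 were higher in activated cells (60%, against 20.1% of all genes) and 1 was lower (6.67%, against 25.6%). Their median log2 ratio was 1.84 in library 1 and 0.72 in library 2. Cells of unnamed cluster 1, with Junb, Atf3 and Nr4a1 among its leading genes, were in neither class, so their counts entered neither side. The effect of leaving them out of astrocyte-like cells was not tested. Early response factors were among the 9: Egr1 was at 1484 and 1229 CPM in activated cells against 220.1 and 229 CPM in astrocyte-like cells, Jun was 3.61-fold and 2.57-fold higher, Fos 1.94-fold and 1.65-fold, Fosb 2.77-fold and 1.59-fold and Ier2 4.88-fold and 3.59-fold. Etv1, the ETS relative of Etv4 and Etv5, was 3.64-fold and 5.55-fold higher, and Ccnd1, a cyclin that drives entry into S phase, 5.21-fold and 7.35-fold. Ccnd1 was also one of the markers that named the activated class, so its higher level is no separate result. The gene that was lower was Phlda1 (1.502-fold and 3.59-fold).

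**Figure D4:**
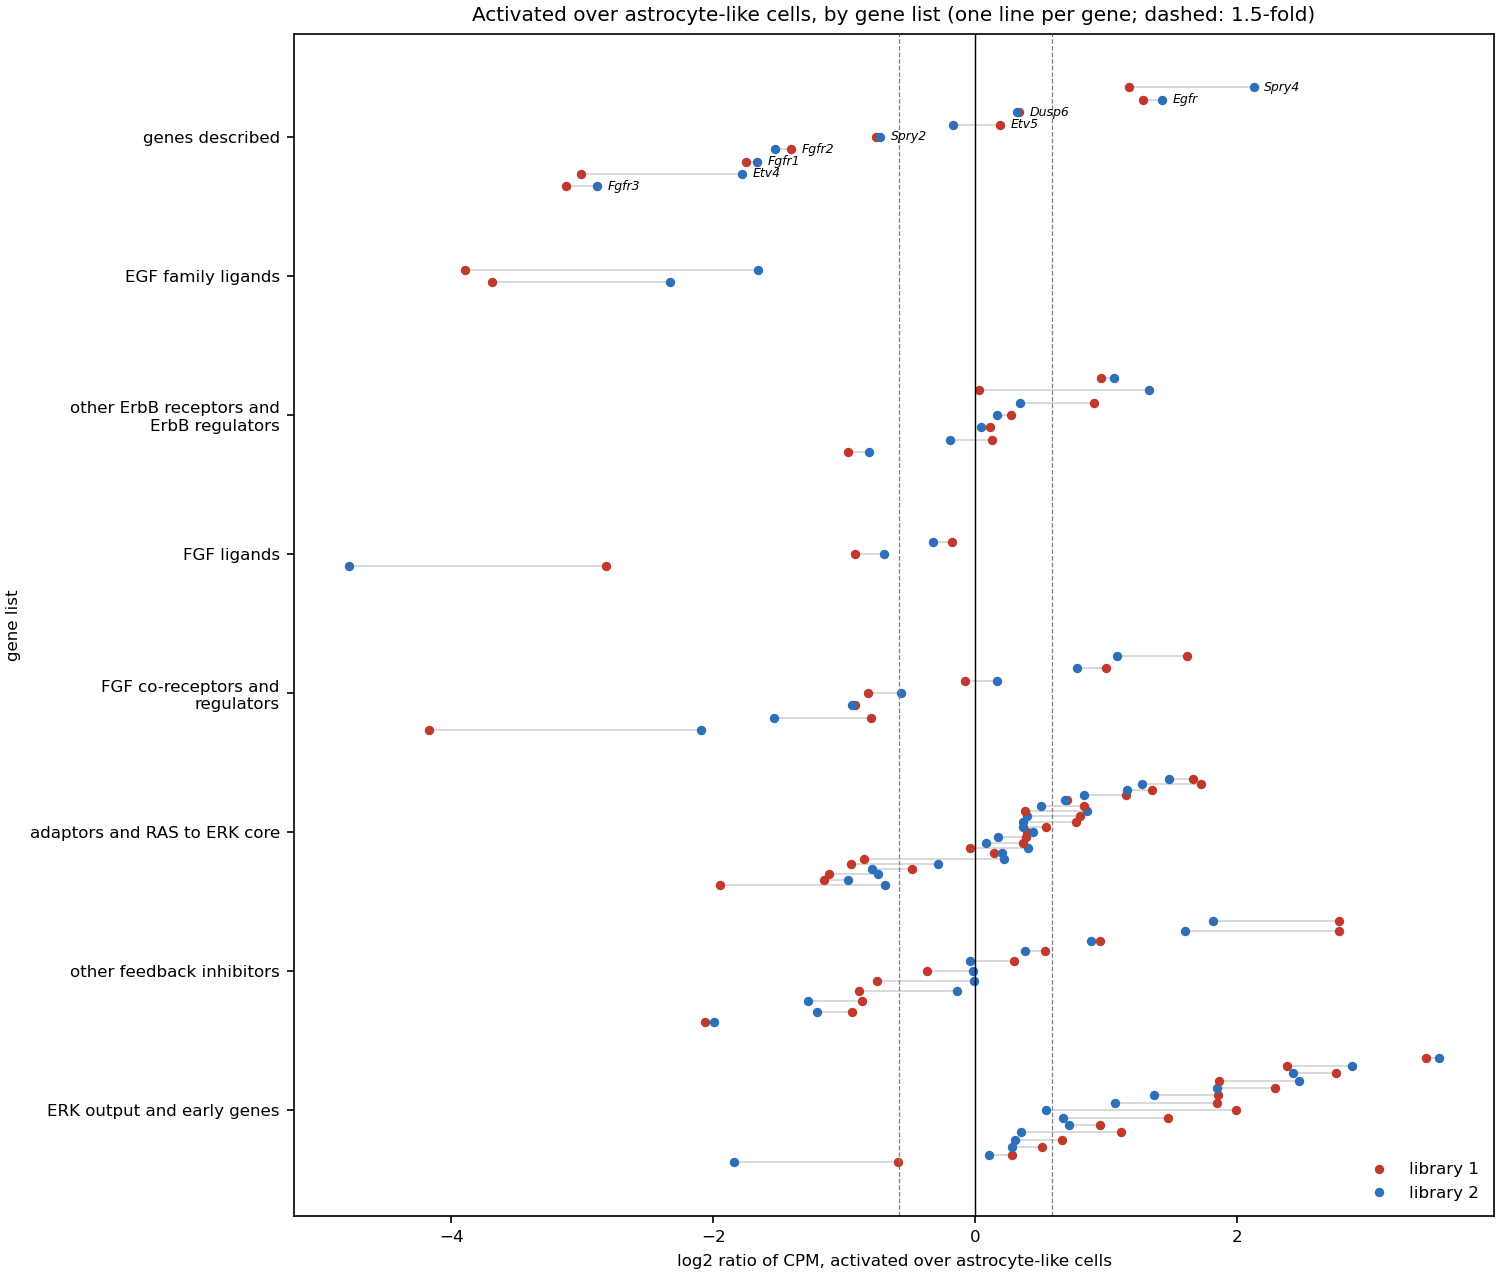
Log2 ratio of CPM, activated over astrocyte-like cells, on the horizontal axis, for the 9 measurable genes described here and the 7 pathway lists, with a point per library and a line per gene; dashed lines mark 1.5-fold. ERK output and early genes lie mostly right of 0 (9 of 15 higher by the 1.5-fold rule), and 5 of the 9 genes described lie beyond 1.5-fold on the left.

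At the later steps the counts were these. In dividing against activated cells 2 of 69 measurable list genes were higher (8.13% of all genes) and 7 lower (4.58%), 4 of these 7 among the 17 early genes. In neuroblasts against dividing cells 10 of 67 were higher (10.5%) and 15 lower (12%). Of these, 9 of 16 early genes were lower (median log2 ratio -1.12 in library 1 and -1.19 in library 2), and 4 of 7 ErbB receptors and regulators were higher.

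Between libraries, in astrocyte-like cells, the lists did not share the tilt seen for the 10 genes. Of 75 measurable list genes 8 were higher (8.38% of all genes) and 8 lower (7.98%) there, with a median log2 ratio of -0.05. Among those with at least 50 UMIs, the largest differences were those of Etv1 (1.97-fold), Ccnd1 (1.93-fold) and Hbegf (1.84-fold), higher in library 1, and Phlda1 (1.53-fold), Fosb (1.37-fold) and Fgf13 (1.36-fold), lower in library 1. In activated cells 6 of 60 were higher (8.82%) and 6 lower (8.74%), and among those with at least 50 UMIs Jun (1.45-fold), Ier2 (1.38-fold), Ccnd1 (1.37-fold) and Ptpn11 (1.35-fold) were higher and Braf (1.55-fold) was lower in library 1. In dividing cells 13 of 78 were higher (6.52%) and 3 lower (5.98%), 7 of the 13 among the 20 early genes. In neuroblasts 8 of 61 were higher (10.7%) and 4 lower (6.75%). The median log2 ratio of the lists was 0.21 in activated cells, 0.17 in dividing cells and 0.12 in neuroblasts, against 0.02, 0.03 and 0.04 for all genes. Outside astrocyte-like cells the ERK output and early genes did tilt to library 1. Above 0 were 14 of 15 in activated cells (median 0.34), 19 of 20 in dividing cells (0.43) and 12 of 14 in neuroblasts (0.42). In astrocyte-like cells 6 of 17 were above 0 (-0.12). Of all genes tested, 4662 of 8823 were above 0 in activated cells, 6135 of 11188 in dividing cells, 5172 of 9279 in neuroblasts and 5604 of 10865 in astrocyte-like cells.

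The patterns of the 10 genes were then compared over 22 points, 11 clusters in each of the 2 libraries. Correlations of log2(CPM + 10) describe these points only, which share cells of 2 libraries and their depth. Fgfr3 and Fgfr1 (Pearson r = 0.89), Fgfr3 and Etv4 (0.89) and Fgfr1 and Etv4 (0.82) ran together, as did Egfr and Etv5 (0.78) and Dusp6 and Etv5 (0.70). Egfr was only weakly related to Fgfr1 (0.33) and Fgfr3 (0.27).

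Among 9153 other genes, the most alike to Egfr were Ccnd1 (r = 0.93), Bag2 (0.93) and Hk2 (0.92), and to Fgfr3 the astrocyte marker Sparcl1 (0.98), Tlcd1 and Slc38a3 (0.97 each). Fgfr1 was most like Gja1, Vcam1 and Mt3 (0.94 each), Fgfr2 most like Timp2 (0.93), Vmp1 (0.92) and Arrdc2 (0.90), and Etv4 most like Nebl (0.93), Trpm3 and Crot (0.92 each). Etv5 was most like Thy1 (0.91), Inppl1 (0.88) and Hey1 (0.87), and Dusp6 most like Klf6 (0.82), Bcl10 (0.80) and Tiparp (0.79). Spry2 was most like Pfas (0.89), Kdelr2 and Rdh13 (0.81 each). For Spry4 these were Mef2d (0.84), Myc (0.76) and Whrn (0.74), and for Spry1 Gbe1 (0.74), Mitd1 (0.72) and Olig2 (0.71), both from few UMIs.

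Within classes, the counting intervals of cells with and without an Egfr UMI overlapped for every other gene. In activated cells 10.7% of cells with Egfr had a Dusp6 UMI in library 1, against 7.35% of cells without, and 5.08% against 5.63% in library 2. For Etv5 the shares were 12.5% against 4.41% in library 1 and 8.47% against 5.63% in library 2. Of 144 such comparisons for Egfr and Fgfr3 in thinned cells, the 95% intervals were apart in 1: 48.0% [27.8 to 68.7] of 25 dividing cells of library 2 with Fgfr3 had a Spry2 UMI, against 18.2% [15.3 to 21.5] of 614 without. At 2000 UMIs per cell, smaller differences were not detectable.

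Outside the lineage, some of the genes were higher in oligodendrocyte precursors than in the 4 classes, on few cells. Etv4 was at 108 CPM in both libraries there, against at most 30.1 CPM in the 4 classes. Etv5 was at 128 [68.1 to 219] and 108 CPM [61.8 to 176] in libraries 1 and 2, against at most 59.0 CPM. Dusp6 was at 59.0 [21.7 to 129] and 101 CPM [56.7 to 167], the first overlapping activated cells of library 1. Spry2 was at 78.7 [34.0 to 155] and 162 CPM [104 to 241]. In library 1 the Spry2 level was below those of astrocyte-like and dividing cells, and in library 2 its interval overlapped that of dividing cells. Spry4 was at 9.84 CPM (1 UMI) and 60.8 CPM (9 UMIs). Egfr was at 207 CPM in library 1, where all 21 UMIs came from 1 cell, and at 47.3 CPM in library 2.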

How the data were processed

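Transcripts of 10 genes were measured by 3′ single-cell RNA sequencing (10x Chromium) in 2 libraries. The values the authors deposited were raw UMI counts per gene and cell barcode, not normalized. Per the submitters' processing notes, Cell Ranger 2.0.0 and the builds GRCm38.p3 and mm10 are named, without a role for each build. The sources used here do not give how libraries were merged or whether counting used strand. Antisense or opposite-strand genes overlap Egfr, Fgfr1, Fgfr3, Spry1 and Spry4, so their counts may include reads of those partners.

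A barcode was kept with 500 genes or more and a mitochondrial share of 10% or less, which left out 9 barcodes of library 1 and 13 of library 2. Scrublet (expected rate 1.5%) marked 16 barcodes (0.865%) of library 1 and 11 (0.527%) of library 2 as doublets. Log values of counts per 10000 were used. The 2000 genes of highest variability, among genes in at least 5 cells and outside the 10 genes and 115 pathway genes, entered 30 principal components, 15 neighbours and Leiden clustering at resolution 1. Clustering used leidenalg 0.10.2, igraph 0.11.9 and scanpy 1.11.5 on anndata 0.12.19, and statistics used scipy 1.17.1 and sklearn 1.9.0. Tables were handled with pandas 2.3.3 and numpy 2.4.6 in Python 3.11.15 (seed 1), and figures drawn with matplotlib 3.10.9.

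Clusters were named from 147 markers of 14 classes, by the highest mean log2 fold over other cells (10 CPM added) with at least 3 markers past 1.5-fold. This rule was set with the clusters in view, was revised 1 time, and gives names in the sense of "like". Each cluster is a partition of these cells, so its leading genes are a description. The genes, lists and markers were chosen with earlier results of these data known.

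UMIs were summed per class and library and scaled to CPM. Intervals were exact Poisson for levels, exact Clopper-Pearson for shares and conditional binomial for ratios. A count of 0 allows up to 3 counts for a level, and the upper Clopper-Pearson bound is given for a share. Genes named were all 10, the 3 most alike to each among genes with at least 200 UMIs, the 12 highest and 8 lowest pathway genes between activated and astrocyte-like cells among those past 1.5-fold with at least 50 UMIs, and the 6 with the largest library difference in each of those 2 classes. A gene that this rule names is not reported here. Pathway genes outside this rule (Tgfa, Fgf1, Fgf13 by class, Cblb and Lrig1) were named after their values were seen. The counting steps were tested on simulated counts. The alternatives tried were doublets kept, a stricter filter, resolutions 2 and 0.5, thinning, other scaling, mean per-cell CPM, all genes allowed to shape clusters, 2-fold, no minimum and, added after seeing the data, clusters 5 or 9 left out and cluster 1 counted as activated.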

Additional observations from a re-analysis of the deposited data

Results flagged for a closer look

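In 3 cases a gene moved in opposite directions in the 2 libraries under the same contrast, each with 1 library a side, so the difference was not tested. Etv5 in activated over astrocyte-like cells had a log2 ratio of 0.19 in library 1 and -0.17 in library 2, a difference of 0.36. Fgfr3 in dividing over activated cells had 0.06 in library 1 and -0.71 in library 2, a difference of 0.77. Dusp6 in dividing over activated cells had -0.26 in library 1 and 0.01 in library 2, a difference of -0.27.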

How the results depend on the processing

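Of 83 ratios over all alternatives, 696 values stayed on their side of 1.5-fold, 61 fell below it, 55 passed it, 6 moved and 12 reversed. In all, 64 values changed sign: the 12 reversed, 3 of those that moved and 49 of the 696, these 49 of ratios not past 1.5-fold. Of 14 counts, 124 values stayed within 1.5 times and 44 moved. Of the levels, 80 of 800 values moved by over 1.5 times, mostly those of Spry1 (28), Spry2 (14), Etv4 (11) and Egfr (9). Egfr in astrocyte-like cells ranged from 53.9 to 115 CPM in library 1, and in neuroblasts from 23.2 to 51.3 CPM in library 1 and 17.8 to 41.0 CPM in library 2. Spry2 in activated cells ranged from 57.8 to 226 CPM in library 1 and 45.8 to 155 CPM in library 2. The reversed values mostly concerned Spry2. In activated over astrocyte-like cells its log2 ratio was 0.93 in library 1 and 0.83 in library 2 with doublets kept, 1.05 and 0.91 with the stricter filter (1000 genes, 5% mitochondrial), 0.10 in library 1 with all genes allowed to shape clusters, and 0.34 and 0.15 with cluster 1 counted as activated. In dividing over activated cells it was -1.21 and -1.19 with doublets kept and -0.77 and -0.64 with the stricter filter. Spry4 in activated over astrocyte-like cells was -0.17 in library 1 at resolution 2. The cause was not tested.

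Counts of genes past 1.5-fold that moved are given by setting. With doublets kept, the 2 higher in activated over astrocyte-like cells were Egfr and Spry2, and after thinning Egfr and Dusp6, against Egfr and Spry4 as reported. With doublets kept, 0 were higher in dividing over activated cells, 5 were lower in neuroblasts over dividing cells and 5 were higher in library 1 in activated cells. With the stricter filter, 0 were higher and 5 lower in dividing over activated cells, 1 was lower in library 1 in activated cells and 0 in neuroblasts. At resolution 2, 1 was higher in activated over astrocyte-like cells (Egfr), 4 were lower in dividing over activated cells, 1 was higher in neuroblasts over dividing cells and 4 were higher in library 1 in activated cells. With all genes allowed, 0 were higher and 4 lower in dividing over activated cells, 6 were lower in neuroblasts over dividing cells, 6 were higher in library 1 in activated cells and 0 lower in neuroblasts.

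After thinning, 1 was lower in dividing over activated cells and 1 higher in neuroblasts over dividing cells. Higher in library 1 were then 2 in astrocyte-like, 0 in activated and 2 in dividing cells and 1 in neuroblasts, and lower were 1 in dividing cells and 0 in neuroblasts. With mean per-cell CPM, 1 was higher and 5 lower in neuroblasts over dividing cells, and 1 was higher in library 1 in dividing cells. At 2-fold, 0 were lower in dividing over activated cells, and higher in library 1 were 0 in astrocyte-like, 1 in activated and 0 in dividing cells and 0 in neuroblasts, with 0 lower in neuroblasts. With no minimum, 1 was lower in library 1 in activated cells and 3 in neuroblasts.

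Chosen after seeing the data were 3 more. Without cluster 5, 0 were higher and 4 lower in dividing over activated cells. Without cluster 9, 1 was lower in dividing over activated cells, 5 were lower in neuroblasts over dividing cells and 2 were higher in library 1 in dividing cells. With cluster 1 counted as activated, 2 were lower in activated over astrocyte-like cells (Fgfr1 and Fgfr3), 0 were higher and 6 lower in dividing over activated cells, and 5 were higher in library 1 in activated cells. Median-of-ratios scaling moved no count. Resolution 0.5 named no activated cluster and gave no values, and no cluster of the 4 classes had over 80% of its cells in 1 library.

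Over all alternatives tried, Egfr stayed higher in activated than in astrocyte-like cells (log2 ratio 1.19 to 2.04 in library 1 and 1.08 to 1.86 in library 2). Fgfr3 stayed lower (-3.32 to -2.10 and -3.12 to -2.50), as did Fgfr1 and Fgfr2. Counting cluster 1 as astrocyte-like was not tried. Egfr was at 264 and 145 CPM in cluster 1 of libraries 1 and 2, against 103 and 70.0 CPM in astrocyte-like cells. Dusp6 was at 118 and 63.5 CPM there, against 40.0 and 22.0 CPM. No paired analysis was possible because each age had 1 library. Depth limits Spry1, Spry4 and Etv4 most, and 1 library per side leaves the spread between animals unmeasured.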
